A study of Bos taurus with 8 samples.

Results

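Interferon-stimulated genes are genes whose transcription rises when a cell senses interferon. They were followed here in liver of Holstein bull cattle given an antibody against bacterial lipopolysaccharide (LPS). The members came from a list of 51 gene names, and a gene was taken as measured where a non-control probe of the array carried exactly that name. This found 45 of the 51 names, each with 1 probe, among 15008 distinct probes that carry 14952 different gene names. The names OAS1X, OAS1Y, IFI44, IFI44L, GBP2 and ADAR were not matched. Of the 45 genes, 38 were tested, which required a detected signal (well above background by the scanner software's flag) on 4 or more arrays, and 33 were detected on all 8. The other 7 were GBP5, IFI6, IFIT1, MB21D1, PSMB9, RSAD2 and ZNFX1.

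Interferons bind receptors that activate the kinases JAK1 and TYK2, which phosphorylate STAT2. STAT2 and IRF9 are parts of a factor that enters the nucleus and switches on a large set of genes. Some of their products sense viral RNA or DNA, some attach the ubiquitin-like protein ISG15 to other proteins, and some block viral replication directly. LPS can also induce many of them, because its receptor TLR4 signals through an adaptor that leads to interferon beta as well as through NF-kB. Liver holds many macrophages, the Kupffer cells, that meet LPS arriving in portal blood.

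The 4 g group received 4 g of egg-yolk immunoglobulin with anti-LPS antibody per head per day, and the 0 g group received none. Both groups consist of the same 4 Holstein bulls, numbers 19, 20, 23 and 24, out of 11 in the trial, which were 5 to 6 months old and weighed 164 ± 14 kg. Dosing went through a rumen fistula for 14 days, and in a Latin square each animal had 0, 2 and 4 g in separate periods. All animals had 11 days of roughage, then 2 days of a high-grain diet with 50% concentrate to induce subacute ruminal acidosis (SARA), then roughage again. Samples carry a time label of 2 days after the challenge, so both groups had been challenged, and 0 g is not an unchallenged baseline. Each animal gave 1 array per dose, which makes 8 one-colour Agilent arrays with 60-base probes, 4 per dose. The labels do not give the period in which an animal had each dose. They name liver as tissue, whereas the extraction protocol among them names rumen epithelium.

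A level below is the log2 signal of a probe minus that of its array's 75th percentile. It compares arrays for 1 probe, not one gene with another. The 75th percentile ran from 125.8 to 311.7 in processed signal. The dimmest were animal 19 at 4 g (125.8) and animal 20 at 0 g (126.3), and the others lay at 218.0 or above. All 12 hepatocyte markers were well above background on all 8 arrays, with a mean level of 5.26 to 5.61 on 4 g arrays and 5.10 to 5.66 on 0 g arrays. Of 11 rumen and squamous epithelium markers, 3 to 5 were well above background per array. KRT5, KRT6B and LYPD3 were so on all 8 and KRT14, KRT4, DSG3, DSC3, SPRR3 and TP63 on 0. The 0 g array of animal 19 stood out among them, with KRT6B at 0.55, A2ML1 at −0.65 and KRT6A at −2.50, while the highest of the other arrays had −2.56, −5.30 and −6.82. Transcripts of pancreatic acinar cells were present on the 0 g array of animal 23, where 10 markers averaged 6.55, against −5.65 to −3.99 on the 4 g arrays and −5.43 to −4.51 on the other 0 g arrays.

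Another check went against the labels of animals 23 and 24. On 60 probes the 8 arrays fell into 2 clearly separate levels, with a gap above 2 log2 units. For 40 of these the split was the 2 dimmest arrays against the rest. In the other 20, both arrays of animal 19 lay on 1 side for 19 probes, and so did both arrays of animal 20. For animals 23 and 24 this held for only 8 probes each. Instead, the 4 g arrays labelled 23 and 24 lay together for 18 probes and the 0 g arrays labelled 23 and 24 for 16. A correlation over the tested probes ranked the animals the other way. Deviations from the group mean had a within-animal r of −0.19, −0.18, 0.21 and 0.13 for animals 19, 20, 23 and 24. Animals 19 and 20 each include a dim array. Whether the numbers 23 and 24 pair the arrays rightly was not tested, and 0 members were among the 60 probes. Each animal gave 1 array per dose. Had 2 arrays labelled with the same dose come from 1 animal, a dose label would be in doubt too, which was not tested. If the numbers are wrong, the differences given below for animals 23 and 24 are between animals as well as doses. The 2 cannot be told apart. For the members that depended most on these animals, on the dim arrays or on the array with pancreatic transcripts, values without them are given too.

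The first question was whether the antibody dose changed the members. With limma, fitted with the animal as a block, 0 of 38 members passed an adjusted p under 0.05, against a background of 0% of 10985 tested probes. At an unadjusted p under 0.05 there were 0 members, against 1.09% of all probes. The smallest member p was 0.0804 in this limma fit, for OAS1Z, and the adjusted p was 1.00 for every tested member. More members had a higher mean at 4 g (27, where 55.1% of all probes did) than a lower one (11, against 44.9%). The median log2 difference, 4 g minus 0 g, was 0.14 over the members and 0.03 over all tested probes. Differences above 0.58 on the log2 scale, about a 1.5-fold change, occurred in 5 members (1.74% of all probes), and 1 member lay below −0.58 (3.31%). The 95% confidence interval excluded a 2-fold change in 19 of 38 members, where it did so in 64.3% of all probes, and the median half-width of the members' intervals was 0.73. For no member did the 4 g arrays separate from the 0 g arrays: 0 members lay wholly above (0.356% of all probes) and 0 wholly below (0.255%).

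The 4 animals did not contribute alike. The median member difference was 0.04 in animal 19, 0.02 in animal 20, 0.29 in animal 23 and 0.31 in animal 24. Over all probes these medians were 0.09, −0.05, −0.01 and 0.10. The members with a higher level at 4 g numbered 20, 19, 24 and 27 of 38 in the same order of animals. Of all probes, 54.9%, 47.1%, 49.4% and 59.1% were higher. Only the exonuclease gene ISG20 was higher in 4 of 4 animals (3.17% of all probes were), and no member was lower in 4 of 4 (2.08%). Fitted on animals 23 and 24 alone, 30 members were higher and 8 lower, with a median of 0.27. On animals 19 and 20 alone, 25 were higher and 13 lower, with a median of 0.05. The counts and medians in this paragraph for subsets of animals or arrays, or for another background correction, are not set beside those of all probes. In an unpaired fit without the 0 g array of animal 23 the median was 0.13, and without the 2 dimmest arrays it was 0.26. The paired fit gave a median of 0.22 without animal 19, and of 0.05 with normexp background correction and quantile normalization of the raw signals. This correction adds a constant to every signal, which by construction compresses faint probes: it gave 0.17 for OAS1Z and HERC6, 0.055 for IRF1, 0.072 for ISG20, 0.13 for IFIT2 and −0.12 for IFIH1. RNA came from whole tissue, so fewer cells of a type and less RNA per cell cannot be told apart.

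**Figure D1:**
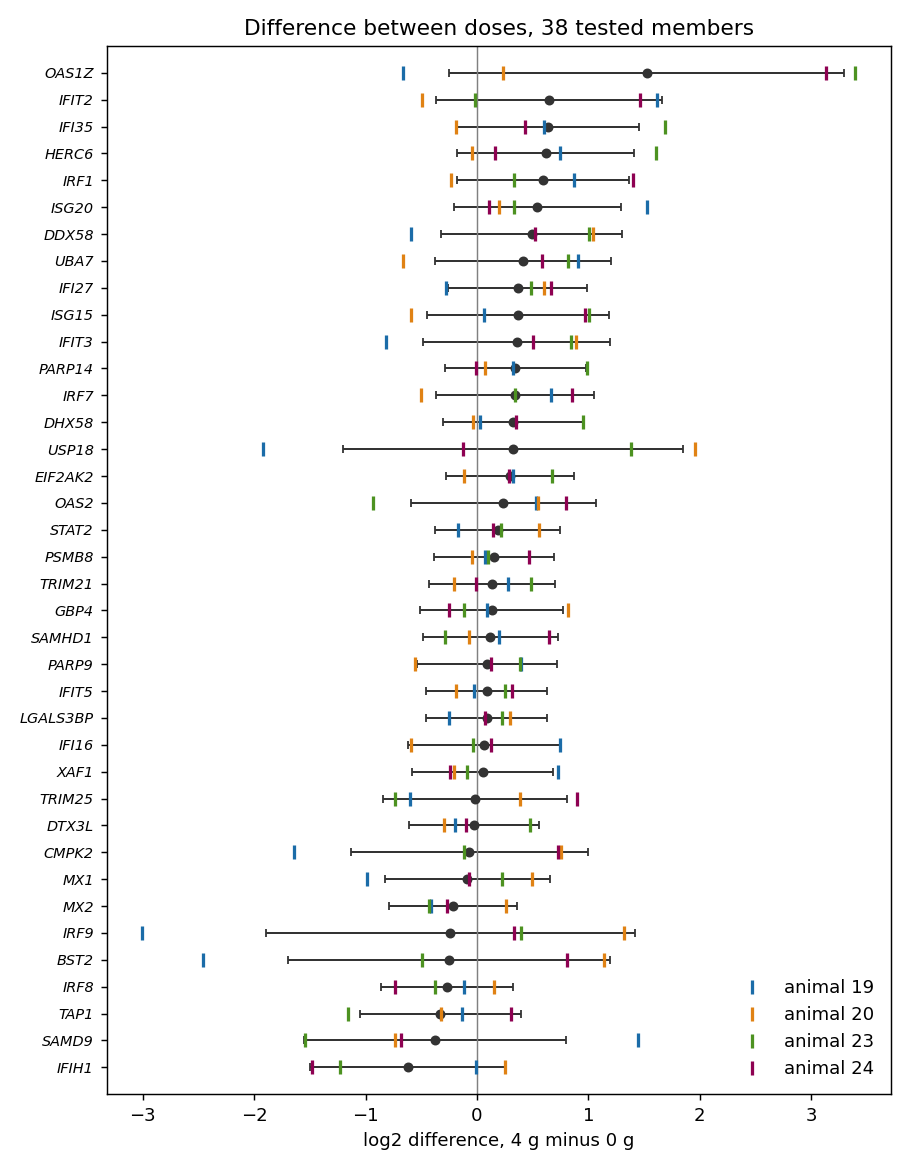
Log2 difference between 4 g and 0 g for the 38 tested members, sorted from highest to lowest. Black points are limma estimates with 95% confidence intervals and coloured ticks are the 4 single animals. The interval of OAS1Z, the widest, runs from −0.25 to 3.29, and every interval contains 0.

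Cytosolic sensors start the pathway. DDX58 (RIG-I) and IFIH1 (MDA5) bind viral RNA, DHX58 (LGP2) modulates them, and MB21D1 (cGAS) binds DNA. Of the 3 tested sensors, 2 had a higher mean at 4 g and 1 a lower mean. The probes of IFIH1 and DHX58 are shown because these genes had opposite patterns in animals 23 and 24. IFIH1 is measured at chr2:34272453-34272512 (UMD 3.1, plus strand) and DHX58 at chr19:42877802-42877861 (minus strand). The lines give, 5′ to 3′, the first 30 bases of the IFIH1 probe and 30 bases of the DHX58 probe, with the hexamer AATAAA in capitals.
IFIH1: ggtattcgagtataaataaggatctaaggt
DHX58: ccataaattaaaAATAAAgaagtggaaaac

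In all lists of 4 levels below the animals stand in the order 19, 20, 23 and 24. IFIH1 stood at −2.24, −2.49, −4.19 and −4.16 on the 4 g arrays, against −2.23, −2.75, −2.96 and −2.68 on the 0 g arrays. The 4 g arrays of animals 23 and 24 were thus the lowest of all 8, by more than 1 log2 unit below the next, while animals 19 and 20 had similar levels at both doses. The log2 difference of IFIH1 was −0.62 (SE 0.36), and 0.12 in animals 19 and 20 only. DHX58 had the opposite arrangement: its levels were −0.47, −0.80, −0.69 and −0.76 at 4 g, against −0.50, −0.76, −1.64 and −1.11 at 0 g. Its 2 lowest arrays were the 0 g arrays of animals 23 and 24. The difference was 0.32 (SE 0.26), and 0.11 in an unpaired fit without the 0 g array of animal 23. DDX58 was measured at −2.57, −1.98, −1.64 and −1.69 at 4 g, against −1.97, −3.03, −2.64 and −2.21 at 0 g. Higher at 4 g in 3 of 4 animals, it differed by 0.49 (SE 0.34), and its lowest array at each dose was one of the dimmest. MB21D1 was well above background on 1 array at 4 g and 2 arrays at 0 g and was not tested.

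Of the transcription factor genes, 3 had a higher mean at 4 g and 2 a lower one. IRF1 and IRF7 activate interferon and interferon-stimulated genes, IRF8 acts in myeloid cells, and STAT2 and IRF9 are subunits of the factor described above. The probes of IRF1, IRF7 and IRF9 are shown as those on which this group's array patterns rest. IRF1 lies at chr7:23237015-23238351 (plus strand), where 60 probe bases span 1337 genomic bases and so cross an exon junction. IRF7 lies at chr29:50906761-50906820 (plus strand) and IRF9 at chr10:20824059-20824118 (minus strand), all UMD 3.1. The IRF1 and IRF9 probes are printed whole and the IRF7 probe as 30 bases, with AATAAA in capitals.
IRF1: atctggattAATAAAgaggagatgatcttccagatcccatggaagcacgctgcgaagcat
IRF7: cccttccaatccAATAAAaagatctaaggg
IRF9: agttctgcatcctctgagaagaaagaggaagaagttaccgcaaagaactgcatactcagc

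IRF1 stood at −4.31, −4.84, −5.36 and −4.63 at 4 g, against −5.18, −4.61, −5.69 and −6.03 at 0 g. It differed by 0.59 (SE 0.32), higher at 4 g in 3 of 4 animals, and by 0.32 in animals 19 and 20 only. IRF7 stood at 1.15, 0.64, 0.38 and 0.90 at 4 g, against 0.48, 1.14, 0.04 and 0.05 at 0 g. Both genes were lowest on the 0 g arrays of animals 23 and 24, and both were highest on the 2 dimmest arrays. The IRF7 difference was 0.34 (SE 0.29), and 0.083 in animals 19 and 20 only. IRF9 ran the other way on the dim arrays, with −6.11, −3.31, −3.32 and −3.54 at 4 g, against −3.11, −4.63, −3.72 and −3.87 at 0 g. Neither dim array was well above background for IRF9, and the other 6 arrays covered −3.87 to −3.11. Its difference was −0.24 (SE 0.69), and 0.18 in an unpaired fit without those 2 arrays. STAT2, among the brightest member probes, differed by 0.19 (SE 0.23), with a mean of 2.97 ± 0.44 at 4 g and 2.78 ± 0.26 at 0 g (SD, n = 4 each). IRF8, named after its values were seen, had a mean of 0.74 ± 0.31 at 4 g and 1.01 ± 0.39 at 0 g, which differed by −0.27 (SE 0.25).

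ISG15 is joined to target proteins by an enzyme chain: UBA7 activates it, HERC6 is its ligase in mouse, TRIM25 has also been described as a ligase, and USP18 removes it again and restrains the interferon receptor. Of these 5 genes, 4 had a higher mean at 4 g and 1 a lower one, with a median difference of 0.36. Probes of ISG15, HERC6 and USP18 are shown, as the modifier, its ligase in mouse and its protease. ISG15 is measured at chr16:52714715-52714774 (minus strand), USP18 at chr5:76402744-76402803 (plus strand) and HERC6 at chr6:37781955-37782641 (minus strand), the last across an exon junction.
ISG15: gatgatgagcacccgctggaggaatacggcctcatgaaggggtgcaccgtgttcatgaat
HERC6: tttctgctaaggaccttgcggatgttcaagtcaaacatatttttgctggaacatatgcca
USP18: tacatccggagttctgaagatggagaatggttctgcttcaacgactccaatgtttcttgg

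ISG15 levels were 1.48, 1.25, 1.72 and 1.64 at 4 g, against 1.42, 1.84, 0.71 and 0.67 at 0 g. The 0 g arrays of animals 23 and 24 lay apart at the low end, and the 0 g array of animal 20 was the highest of all. The ISG15 difference was 0.36 (SE 0.34) over 4 animals, with 1.01 for animal 23, 0.97 for animal 24, 0.06 for animal 19 and −0.59 for animal 20. UBA7 was measured at 1.65, 0.45, 0.46 and 0.70 at 4 g, against 0.75, 1.11, −0.35 and 0.11 at 0 g. It was lowest on the same 2 arrays as ISG15, with a difference of 0.41 (SE 0.33), and of 0.12 in animals 19 and 20 only. HERC6 stood at −1.88, −3.62, −2.87 and −3.42 at 4 g, against −2.62, −3.58, −4.48 and −3.58 at 0 g. Animal 19 had the highest level of HERC6 at each dose and the lowest level was the 0 g array of animal 23. The HERC6 difference was 0.62 (SE 0.33), with 0.74, −0.04, 1.61 and 0.16 in the single animals. Without animal 23 it was 0.29, and without the 2 dimmest arrays, unpaired, it was 0.26. TRIM25 had nearly equal means, with a difference of −0.01 (SE 0.34).

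USP18, singled out after its values were seen, stood at −3.16, −1.43, −0.68 and −1.28 at 4 g, against −1.24, −3.38, −2.06 and −1.15 at 0 g. The 2 dimmest arrays held its lowest levels, one at each dose. Its difference was 0.32 (SE 0.63), with −1.92, 1.95, 1.38 and −0.13 in the single animals. It was 0.36 in unpaired means without the dim arrays and −0.03 without animal 23.

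**Figure D2:**
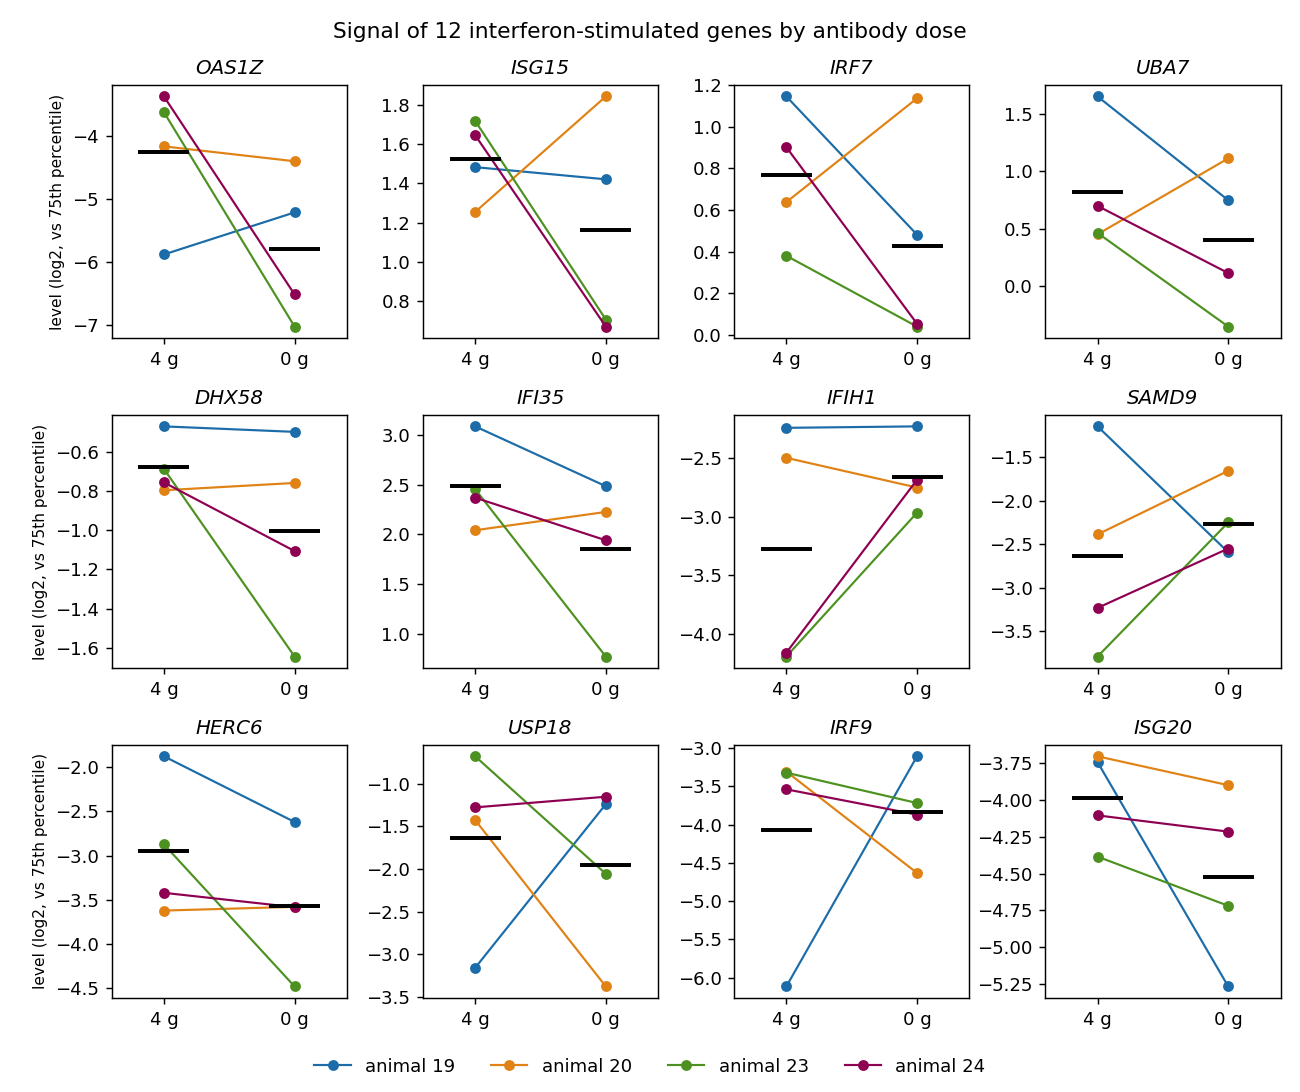
Levels of 12 members (log2 signal minus that of the array's 75th percentile) at 4 g and 0 g, with 1 coloured line per animal, black bars for group means and a separate vertical scale in each panel. ISG15, UBA7, IRF7, DHX58 and IFI35 share low points at 0 g in animals 23 and 24, IFIH1 and SAMD9 have theirs at 4 g in those animals, and IRF9 and USP18 are lowest on the 2 dim arrays (animal 19 at 4 g and animal 20 at 0 g).

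OAS proteins make oligoadenylates that activate ribonuclease L, MX proteins are dynamin-like GTPases that trap viral particles, and IFIT proteins bind viral RNA. Of the 7 tested genes in this group, 5 had a higher mean at 4 g and 2 a lower one, with a median of 0.24. OAS1Z had the widest difference of all members, so its probe is shown. It lies at chr17:63670269-63670328 (UMD 3.1, minus strand). The first 30 bases are given. OAS1X and OAS1Y are related copies of this gene in cattle, and the probe may pick up part of their signal.
OAS1Z: tgattctcattgtaatacattgagacatgg

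OAS1Z stood at −5.88, −4.17, −3.63 and −3.38 on the 4 g arrays, against −5.21, −4.41, −7.02 and −6.51 on the 0 g arrays. It was well above background on 3 arrays at 4 g and 2 at 0 g, and the arrays below background were animal 19 at 4 g and animals 23 and 24 at 0 g. The difference was 1.52 (SE 0.73, 95% CI −0.25 to 3.29, unadjusted p = 0.0804 and adjusted p = 1.00 in limma). Since 3 of these arrays lie below background, the fitted size is no exact measurement. Set against the faintest signal well above background on the 0 g array, OAS1Z was at least 5.10-fold higher at 4 g in animal 23 and at least 6.76-fold higher in animal 24. Animal 20, measured at both doses, gave a log2 difference of 0.24. In animal 19 only the 0 g array was well above background. Set against the faintest such signal on its 4 g array, OAS1Z was at most 1.30-fold higher at 4 g there. The groups overlapped through the dim 4 g array of animal 19, which was not well above background. It lay at −5.88, below the 0 g levels of animals 19 and 20.

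OAS2, its neighbour on chromosome 17 within 58.5 kb, did not share this arrangement. OAS2 differed by 0.24 (SE 0.34), and by −0.93 in animal 23. MX1 had a mean of 1.07 ± 0.17 at 4 g and 1.16 ± 0.76 at 0 g (SD, n = 4 each). The wide spread at 0 g came from animal 19, whose level was 2.27, while the other 0 g levels were 0.66, 0.69 and 1.02. MX2 had a mean of −4.19 ± 0.23 at 4 g and −3.98 ± 0.46 at 0 g, and these differed by −0.21 (SE 0.24).

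IFIT2 stood at −2.43, −2.89, −3.50 and −2.79 at 4 g, against −4.05, −2.39, −3.48 and −4.26 at 0 g. It differed by 0.64 (SE 0.42), but with 1.62 and 1.47 in animals 19 and 24 against −0.49 and −0.02 in animals 20 and 23. IFIT3 was faint, well above background on 3 arrays at 4 g and 2 at 0 g, and differed by 0.36 (SE 0.35). IFIT5 was the most even of the family, ranging from 0.82 to 1.29 at 4 g and from 0.93 to 1.04 at 0 g. IFIT1 was not well above background on any array. IFIT1, IFIT2, IFIT3 and IFIT5 lie together on chromosome 26 within 56.3 kb.

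Among other antiviral effectors, 5 of 8 tested genes had a higher mean at 4 g and 3 a lower one, with a median of 0.09. ISG20 degrades single-stranded RNA. Its levels were −3.74, −3.70, −4.38 and −4.10 at 4 g, against −5.27, −3.90, −4.72 and −4.21 at 0 g. The difference was 0.54 (SE 0.31), and although the sign was the same in every animal, 1.52 came from animal 19 and the other animals gave 0.11 to 0.33. Without animal 19 it was 0.21. BST2 (tetherin) holds budding virions at the cell surface, and cattle are known to carry more than one BST2 gene, which the probe may not separate. BST2 stood at −5.23, −1.43, −1.87 and −0.87 at 4 g, against −2.77, −2.56, −1.38 and −1.68 at 0 g. Its low point was the dim 4 g array of animal 19, where it was not well above background, and its difference was −0.25 (SE 0.60) over 4 animals and 0.55 in an unpaired fit without the 2 dimmest arrays.

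SAMD9, an antiviral factor that restricts poxviruses, stood at −1.14, −2.39, −3.79 and −3.23 at 4 g, against −2.59, −1.65, −2.25 and −2.55 at 0 g. Like IFIH1, SAMD9 was lowest on the 4 g arrays of animals 23 and 24. The SAMD9 difference was −0.38 (SE 0.49), and 0.36 in animals 19 and 20 only. SAMHD1, which depletes the nucleotides that viruses need, differed by 0.12 (SE 0.25). The remaining tested genes of the group, EIF2AK2 (the kinase PKR), IFI16 (a DNA sensor), CMPK2 (a mitochondrial nucleotide kinase) and GBP4 (a guanylate-binding protein), had differences between −0.07 and 0.29.

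GBP5, another guanylate-binding protein, was not tested but is named after its values were seen. It was well above background on 2 arrays at 4 g, those of animals 23 and 24, and on 0 at 0 g. Its levels were −4.91, −6.60, −5.26 and −5.03 at 4 g, against −6.16, −7.01, −6.88 and −8.43 at 0 g. Since its 0 g levels and the 4 g levels of animals 19 and 20 are not well above background, no fold is given. Other GBP genes may share part of the signal. RSAD2 (viperin) was well above background on 0 arrays at 4 g and 1 at 0 g, and ZNFX1 (an RNA helicase) on 0 and 2.

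Enzymes of ADP-ribosylation and ubiquitin transfer had differences from −0.03 to 0.35. PARP9 and DTX3L form a complex that acts at DNA breaks, PARP14 is a macrophage regulator, and TRIM21 is a cytosolic antibody receptor with ubiquitin ligase activity. PARP14 stood at 0.28, 0.02, 0.66 and 0.37 at 4 g, against −0.05, −0.05, −0.33 and 0.37 at 0 g. Its difference was 0.35 (SE 0.26), nearly all of it in animals 19 and 23. PARP9, DTX3L and PARP14 lie within 79.4 kb on chromosome 1, and DTX3L had a difference of −0.03 (SE 0.24) beside 0.09 (SE 0.26) for PARP9.

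Antigen processing was represented by PSMB8 and PSMB9, catalytic subunits of the immunoproteasome, and by TAP1, which carries peptides into the endoplasmic reticulum. All 3 lie on chromosome 23 within 19.9 kb. PSMB8 had a difference of 0.15 (SE 0.22) and TAP1 one of −0.33 (SE 0.30). PSMB9 was well above background on 1 array at 4 g and 0 at 0 g.

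All 4 tested genes of the remaining group had a higher mean at 4 g, with differences of 0.05 to 0.63. IFI35, which associates with NMI, stood at 3.09, 2.04, 2.46 and 2.37 at 4 g, against 2.49, 2.23, 0.77 and 1.94 at 0 g. One array, 0 g of animal 23, lay more than 1 log2 unit below all others. The difference was 0.63 (SE 0.34), with 0.60, −0.18, 1.69 and 0.43 in the single animals, and 0.28 without animal 23. IFI27, a mitochondrial and nuclear envelope protein, stood at 3.00, 3.94, 3.81 and 3.84 at 4 g, against 3.27, 3.34, 3.33 and 3.17 at 0 g. Of its 4 g arrays 3 exceeded every 0 g array, and the dim array of animal 19 was the lowest of all 8. The IFI27 difference was 0.37 (SE 0.26). LGALS3BP, a secreted glycoprotein and the brightest member probe, had a mean of 5.36 ± 0.07 at 4 g and 5.28 ± 0.22 at 0 g (SD, n = 4 each). XAF1, a proapoptotic factor, differed by 0.05 (SE 0.26), and IFI6 was not well above background on any array.

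The arrays on which members were lowest recurred across roles. For 9 of 38 members, against 7.19% of all probes, the 2 lowest arrays were the 0 g arrays of animals 23 and 24: DHX58, IFI35, IRF1, IRF7, ISG15, OAS1Z, PARP9, PSMB8 and UBA7. Another scaling or filter gave 7 to 9 such members. This count was defined after the levels had been seen and carries no test. The 4 g arrays of the same animals were the 2 lowest for IFIH1 and SAMD9 (3.57% of all probes). The 2 dimmest arrays were the 2 lowest for CMPK2, IRF9, MX2 and USP18 (19.7%) and the 2 highest for 8 members (24.4%). The single lowest array was 0 g of animal 23 for 13 members, against 15.7% of all probes.

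Other values moved on those arrays too. The hepatocyte marker mean was 5.14 on the 0 g array of animal 23 and 5.10 on that of animal 24, below the 5.26 to 5.61 of the 4 g arrays and the 5.63 and 5.66 of the other 0 g arrays. The acinar markers were high on the 0 g array of animal 23 but not on that of animal 24, where they averaged −4.51. Macrophage and Kupffer cell markers, 10 or 11 of 11 well above background per array, averaged 1.14 and 0.95 on these 2 arrays. On the 4 g arrays they averaged 0.55 to 1.19, so they were not low there. T and NK cell markers averaged −2.38 and −2.60, against −2.90 to −2.48 on the 4 g arrays. A separate list of other interferon-stimulated genes, described below, averaged −1.18 on the 0 g array of animal 23 and −1.39 on that of animal 24. Its means were −1.37 to −1.20 on the 4 g arrays and −1.30 and −1.49 on the other 0 g arrays. The list mean was thus highest on the 0 g array of animal 23, so that list as a whole was not low there. The part of cell content, and of the doubtful animal numbers, in the low levels was not tested.

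**Figure D3:**
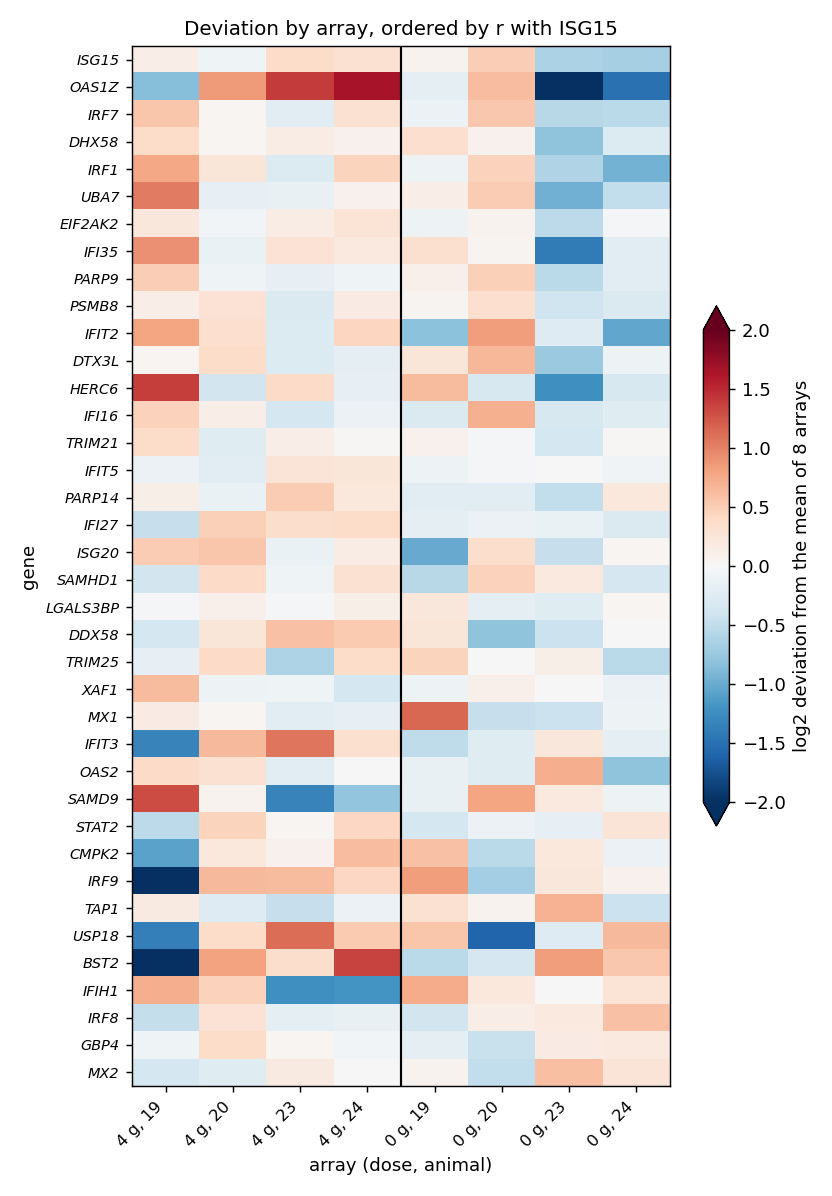
Deviation of each tested member from its mean over the 8 arrays (log2, colour scale from −2 to 2), with the 4 g arrays left of the 0 g arrays and genes ordered by their correlation with ISG15. The upper rows are blue on the 0 g arrays of animals 23 and 24, while USP18, IRF9 and BST2 near the bottom are darkest for animal 19 at 4 g or animal 20 at 0 g.

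Likeness to ISG15 was described by Pearson's r over the 8 arrays. OAS1Z had the highest r at 0.81, followed by IRF7 at 0.78, DHX58 and IRF1 at 0.75, UBA7 at 0.71 and EIF2AK2 at 0.70. At the other end were MX2 at −0.70, GBP4 at −0.66 and IRF8 at −0.62. The r of OAS1Z includes values not well above background. OAS1Z was so on only 5 arrays, and its 2 lowest values, on the 0 g arrays of animals 23 and 24, were below it. Over all 703 pairs of tested members the median r was 0.08, against 0.02 over all pairs of tested probes, and 0.18 without the 2 dimmest arrays. The 8 points share animals, brightness and the scaling to 1 percentile, and OAS1Z, IRF7, DHX58, IRF1 and UBA7 are all among the 9 members lowest on the 0 g arrays of animals 23 and 24.

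A second question was whether the dose difference itself depended on the animals' place on the slide. Animals 19 and 20 lay on slide row 1 and animals 23 and 24 on row 2, so the row and the animals cannot be told apart. In limma, 0 members passed the dose by row term at an adjusted p under 0.05 (0% of all probes), and 2 did at an unadjusted p under 0.05 (0.983% of all probes). These were OAS1Z, with a fitted row 2 minus row 1 difference of 3.48 (SE 0.61, adjusted p = 1.00), and IFIH1, with −1.47 (SE 0.56, adjusted p = 1.00). The OAS1Z value includes 3 arrays below background, so its size and error are not exact. ISG15 had 1.25 (SE 0.58) and SAMD9 −1.47 (SE 0.88).

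**Figure D4:**
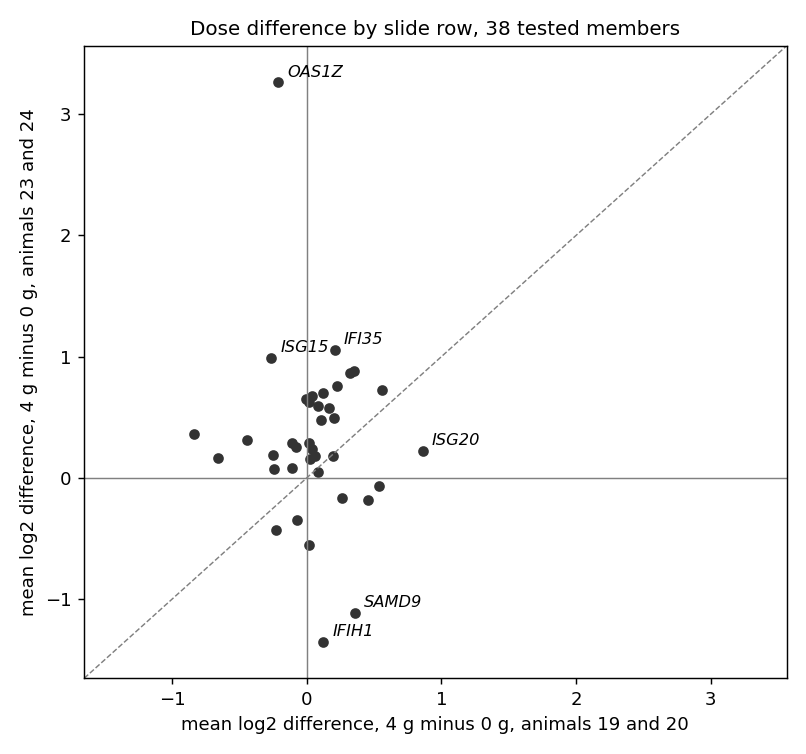
Mean log2 difference, 4 g minus 0 g, in animals 23 and 24 (vertical) against animals 19 and 20 (horizontal) for the 38 tested members, with the dashed line where both are equal. OAS1Z, plotted at 3.26 in animals 23 and 24 and −0.22 in animals 19 and 20 although 3 of its arrays were below background, lies far above the line, IFIH1 and SAMD9 lie below it, and most other points sit within 1 log2 unit of 0 on both axes.

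Differences between the 4 animals, whatever the dose, were tested with the F-test of limma. No member passed (0 of 38 at an adjusted p under 0.05, 0% of all probes, and 0 at an unadjusted p under 0.05, where 2.71% of all probes did). The smallest adjusted p of a member was 0.985. HERC6 and BST2 had the smallest unadjusted p values, 0.0597 and 0.0615 in that limma test. HERC6 was highest in animal 19 at each dose, as described above, and DTX3L was highest in animal 20 at each dose, with −2.15 at 4 g and −1.85 at 0 g.

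Other genes of the pathway were read from the same fit. Of 50 other interferon-stimulated genes tested, 34 had a higher mean at 4 g (55.1% of all probes did) and 16 a lower one, with a median of 0.14. None changed at an adjusted p under 0.05 in limma. At an unadjusted p under 0.05 there was 1, the ubiquitin ligase gene RNF213, where 1.09% of all probes passed. RNF213 stood at 1.38, 0.25, 0.81 and 0.87 at 4 g, against 0.59, 0.35, −0.51 and −0.05 at 0 g, and it differed by 0.73 (SE 0.29, adjusted p = 1.00 in limma). Its 2 lowest arrays were the 0 g arrays of animals 23 and 24, as for 7.19% of all probes. How many genes of this list shared that was not counted. The mean level of the list on these arrays was −1.18 and −1.39, against −1.37 to −1.20 on the 4 g arrays and −1.30 and −1.49 on the other 0 g arrays. TRIM26 and the nucleic acid sensor ZBP1 differed by 0.39 each (SE 0.25 and 0.26), and the chemokine CXCL10 by 0.14 (SE 0.30).

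The interferon genes measured were at or near background, while the names IFNB1 (interferon beta), IFNA1, IFNAD, IFNT, IFNT2 and IFNE were not matched on the array. IFNG, IFNAC, IFNAG, IFNW1 and IFNK were well above background on 0 arrays, and IFNT3 on 1. Of 13 tested receptor and signalling genes 6 had a higher and 7 a lower mean at 4 g, with a median of −0.02 and 0 changed. The receptor chains IFNAR1 and IFNAR2 differed by −0.34 (SE 0.48) and −0.02 (SE 0.27), and the phosphatase PTPN6 by −0.10 (SE 0.25). Of 18 tested genes of nucleic acid and LPS sensing upstream of interferon, 12 had a higher and 6 a lower mean, with a median of 0.05. Those with the smallest p in that list, CYLD, TMEM173 (STING) and AZI2, differed by 0.32 (SE 0.27), −0.30 (SE 0.27) and 0.20 (SE 0.21), and 0 changed.

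The probes of the members also differ in what part of the transcript they read. The sequence AATAAA, the usual polyadenylation signal, was searched on the probe strand, and its reverse complement TTTATT separately. AATAAA was present in 6 of 45 member probes (DHX58, IFIT2, IRF1, IRF7, TRIM21 and XAF1), which is 13.3%, against 9.51% of all probes. TTTATT was present in 0, against 3.40% of all probes. A match is of letters only, and whether any of them acts as a polyadenylation signal was not tested. The IRF1 match lies in a probe that starts at base 326 of its transcript, crosses an exon junction and has 1 frame free of stop codons. In 8 member probes (17.8%, against 13.7% of all probes) no reading frame was free of stop codons, among them OAS1Z, IFIH1 and IRF7. Exon junctions were crossed by 5 member probes, 11.1%, against 15.9% of all placed probes: HERC6, IRF1, MB21D1, TAP1 and ZNFX1. Members with the pattern of low levels on the 0 g arrays of animals 23 and 24 thus include probes of each of these kinds, and the members lie on 22 chromosomes.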

How the data were processed

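Per the file headers, the deposited intensity values (processed signal, mean signal and median local background of each spot) came from Agilent Feature Extraction 11.0.1.1. The submitters' processing notes name version 9.5. The value table deposited by the authors holds log2 values. Across probes, every column had r = 1.00 with log2 of that array's processed signal, a median between −3.04 and −2.84 and a 75th percentile of 0.0099 to 0.015. All its columns were matched to samples, and it served as an alternative.

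Of 15646 features per array, 536 controls and 48 outlier spots were left out. No spot was saturated, and 64.4% to 80.4% of probes were well above background. The 8 arrays shared 1 slide and 1 scan. The number of arrays limits the precision. The log2 processed signal was centred on each array's 75th percentile and spots of 1 probe were averaged. Dose differences came from limma 3.58.1 (lmFit, eBayes, 2-sided), run in R 4.3.3 with version 1.17.8 of data.table. Animal was a block, and p values were adjusted by Benjamini-Hochberg over 10985 probes. By their labels the replicates are separate animals, with the doubt about numbers 23 and 24 given above. The block follows the design text, where each animal is its own control. For the pairing check, each array's deviations from its group mean were correlated within an animal, giving r of −0.19, −0.18, 0.21 and 0.13 for animals 19, 20, 23 and 24. The fit was tested on simulated data.

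Names of other lists were updated through RefSeq (ARS-UCD2.0, names only): 11683 probes matched by accession, 2675 by symbol and 36 by synonym, and 614 kept the file's name. All 45 members had their file name, and probe coordinates are those of the files (UMD 3.1). No promoter or protein sequence was used here.

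The members and all lists were chosen with earlier results of these data known. Genes named with values were the 12 tested members with the smallest p for dose, the 10 for animals and the 5 for the dose by row term, a fixed set of core members, the 3 brightest and 3 dimmest, those never above background, and up to 3 genes of each other list. Members outside this rule are named in counts, in groups or after their values were seen. The alternatives were other scalings, background corrections, filters, variance models and sets of arrays. The 2 g group was not analysed here, and 1 gene that the rule names is not reported here.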

Additional observations from a re-analysis of the deposited data

Results flagged for a closer look

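In 4 groups of 4 arrays, out of 76 screened (5.26%), the level of 1 animal lay far from the other 3 of its dose, by Dixon's ratio at its 95% critical value of 0.829. Chance gives about 1 in 20 such groups. IRF9 stood at −6.11 on the 4 g array of animal 19, with the other 4 g arrays between −3.54 and −3.31. IFI27 stood at 3.00 on the same array, against 3.81 to 3.94 on the other 4 g arrays, and PARP9 at −2.91, against −3.56 to −3.48. IFI16 stood at 0.35 on the 0 g array of animal 20, with the other 0 g arrays between −0.68 and −0.60. These 2 arrays are the dimmest of the 8, and the part of their brightness in these values was not tested.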

How the results depend on the processing

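No member changed at an adjusted p under 0.05 in limma under any alternative run. Without the replicate block, 0 probes and 0 members changed, and the median member difference stayed at 0.14. In an unpaired fit without the 2 dimmest arrays, 5 probes changed, 0 of them members, and 7 members rather than 11 had a lower mean. The share of all probes with a lower mean in that fit is not given. Between animals, 1 probe and 0 members differed in animals 19 and 20 only, and 0 to 1 probes with 1 animal left out. Of 395 values of 25 named members, 369 kept their sign. The others were reversed, and the cause was not tested. DTX3L was 0.0019 after quantile normalization, 0.090 with array weights, −0.20 to 0.060 with 1 animal left out, 0.19 in animals 23 and 24 only and 0.17 without the 2 dimmest arrays. BST2 was 0.096 with normexp, −0.71 to 0.49 with 1 animal left out, 0.16 in animals 23 and 24 only and 0.55 without the dimmest arrays. IRF9 was 0.0010 with normexp, 0.16 with array weights, −0.76 to 0.68 with 1 animal left out, 0.36 in animals 23 and 24 only and 0.18 without the dimmest arrays. MX1 was 0.048 with array weights, −0.28 to 0.22 with 1 animal left out and 0.076 in animals 23 and 24 only, where OAS2 was −0.064. With 1 animal left out, SAMD9 was −0.99 to 0.011 and SAMHD1 −0.053 to 0.26. Among these leave-one-out fits, the positive values came without animal 19 for BST2, IRF9 and MX1, 19 or 20 for DTX3L and 23 for SAMD9, and the negative one of SAMHD1 without 24. In animals 19 and 20 only, OAS1Z was −0.22, ISG15 −0.26, DHX58 −0.0047, IFIH1 0.12 and SAMD9 0.36. The 4 alternatives to the count of 9 members lowest on the 0 g arrays of animals 23 and 24 were chosen after seeing the data and gave 7 to 9. Signal over background left 7 of 45 members untested.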
